A study of Mus musculus with 8 samples.

Results

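Islet autoantigens are proteins of the insulin-secreting cells of the pancreas against which autoantibodies or T cells form in type 1 diabetes. The expression of 6 genes that encode such proteins was examined in pancreatic islets of mice: Ptprn, Ptprn2, Ica1, Gad1, Gad2 and Tspan7. They were chosen by name as rows of the gene-level abundance table, 6 of its 35596 genes, and not by their values. Of these, 5 had a mean of at least 1 TPM (a gene's share of the transcripts of its library, scaled by transcript length) and were among the 8127 genes tested; Gad2 lay below that limit.

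The 4 weight-cycled libraries came from male C57BL/6J mice, an inbred strain, given a 60% fat diet for 9 weeks, a 10% fat diet for 9 weeks and the 60% fat diet for 9 more weeks. The 4 obese libraries came from male C57BL/6J mice given the 10% fat diet for 9 weeks and then the 60% fat diet for 18 weeks. Islets were isolated by collagenase digestion and hand picking, and their polyadenylated RNA was sequenced. Both groups ended on the 60% fat diet, no lean group was analysed here, and the unbroken last period on that diet differed between them (9 against 18 weeks), which cannot be told apart from the weight loss and regain. Whether a library is 1 animal or a pool is not in the labels, so the p-values speak to the spread of these libraries alone, which may be technical.

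All 6 are genes of neuroendocrine cells. Ptprn and Ptprn2 encode IA-2 and phogrin, paralogous transmembrane proteins of the dense-core granule membrane whose phosphatase-like domains have little or no activity towards phosphotyrosine and whose loss in mice lowers granule content and hormone secretion. Gad1 and Gad2 encode the paralogous enzymes that decarboxylate glutamate to the transmitter GABA, which beta cells release. Ica1 encodes a protein with a BAR domain, a fold that binds curved membranes, which acts at the Golgi and on immature granules. Tspan7 encodes a tetraspanin of the plasma membrane and of granules. Rodent and human islets differ in the autoantigen genes they use: the form encoded by GAD2 prevails in human islets and that of Gad1 in mouse islets.

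Sequences before an annotated start of each gene of both paralogous pairs are shown. The members of each pair differed in these libraries, Ptprn from Ptprn2 in the comparison of the groups and Gad1 from Gad2 in level. The sequences are RefSeq sequences of build GRCm38.p6, taken from the 250 bases before that start, in the direction of the gene. Bases that GENCODE places in an exon are left out. For Ptprn, Gad1 and Gad2 the start used lies inside the GENCODE span of the gene given below. The printed Ptprn and Gad1 bases therefore lie within that span. Distances are counted from the start used. Ptprn has 2 annotated starts, and the upstream one is used. Capitals mark matches on either strand to the half-site of a cyclic AMP response element, spelled TGACG. They also mark the GC box, spelled GGGCGG, and the TATA box, spelled TATAAA.
Ptprn, chr1:75264214-75264433, minus strand: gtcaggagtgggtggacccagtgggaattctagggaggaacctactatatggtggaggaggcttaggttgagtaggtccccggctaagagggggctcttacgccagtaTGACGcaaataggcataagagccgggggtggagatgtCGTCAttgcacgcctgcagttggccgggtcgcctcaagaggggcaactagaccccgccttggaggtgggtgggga
Ptprn2, chr12:116485470-116485719, plus strand: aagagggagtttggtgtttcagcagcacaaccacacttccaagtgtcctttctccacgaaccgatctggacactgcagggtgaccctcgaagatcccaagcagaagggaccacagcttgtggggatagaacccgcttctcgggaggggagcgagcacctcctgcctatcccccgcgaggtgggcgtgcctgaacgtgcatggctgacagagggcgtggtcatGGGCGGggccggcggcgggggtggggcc
Gad1, chr2:70561879-70562041, plus strand: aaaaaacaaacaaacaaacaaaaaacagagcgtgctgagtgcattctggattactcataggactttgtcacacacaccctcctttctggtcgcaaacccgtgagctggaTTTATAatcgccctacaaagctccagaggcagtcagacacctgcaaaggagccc
Gad2, chr2:22622077-22622204, plus strand: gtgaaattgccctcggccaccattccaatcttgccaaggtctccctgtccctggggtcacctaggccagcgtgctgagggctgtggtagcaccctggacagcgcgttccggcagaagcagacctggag
Ptprn held 2 matches to TGACG, beginning 117 and 80 bases before its start, and Ptprn2 held none in its 250 bases. Ptprn2 held 1 GC box, beginning 28 bases before its start, and Gad1 1 match to the TATA box, 141 bases before its start. In the exonic bases of these windows, not printed, Gad1 held 1 GC box and Gad2 1 cyclic AMP half-site. Of all 32851 such 250-base windows, 17.8% hold the half-site, 32.7% the GC box and 12.4% the TATA box, so each match is common and is given as a description of the letters alone. In its full 250 bases GC content was 59.2% for Ptprn, 63.6% for Ptprn2, 58.0% for Gad1 and 64.0% for Gad2, against a median of 52.4% over all windows.

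The libraries were islet libraries by their markers: transcripts of Ins1 and Ins2 made up 75.4% to 78.8% of TPM in each of the 8, and all 10 beta-cell markers passed the filter. On the first principal component, with 66.8% of the variance, weight-cycled replicate 1 lay at -7.98, within the obese range of -23.3 to -5.03, while the other weight-cycled libraries lay between 13.8 and 30.6. The same split was seen in transcript length. Across genes, Spearman's rho between transcript length and the deviation of a gene from its mean was 0.345 in weight-cycled replicate 1, -0.400 to -0.283 in the remaining weight-cycled replicates and 0.184 to 0.375 in obese libraries. Over all tested genes the median log2 fold change, weight-cycled minus obese on the log2(TPM + 1) scale, was -0.26. Median-of-ratios scaling, which divides each library by the typical ratio of its genes to their means, moved that median to -0.01. Results are therefore given on TPM as deposited, after that scaling, and without weight-cycled replicate 1 where these differ.

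On TPM as deposited, Gad1 and Ptprn2 were lower in weight-cycled islets, Ptprn, Ica1 and Tspan7 did not pass the test, and Gad2 was close to 0 in every library. After median-of-ratios scaling of all libraries, neither Gad1 nor Ptprn2 passed (limma adjusted p = 0.0612 and 0.114). Mean TPM as deposited in weight-cycled islets was 0.440 of that in obese islets for Gad1, 0.603 for Ptprn2, 0.833 for Ica1, 0.849 for Tspan7 and 1.11 for Ptprn. On that scale limma called 2 of the 5 tested members, both lower, on a background in which it called 25.2% of all tested genes, 23.9% as lower and 1.21% as higher. With the replicate number as a block it called the same 2 members against 35.7% of all tested genes (33.9% lower). The groups did not overlap for 2 of the 5, Gad1 and Tspan7, and for 22.4% of all tested genes (21.1% lower and 1.3% higher). These shares of members are near the background in so small a set, so the counts are not a result about the autoantigen genes. Median log2 fold change was -0.26 over the 5 tested members, as over all tested genes.

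**Figure D1:**
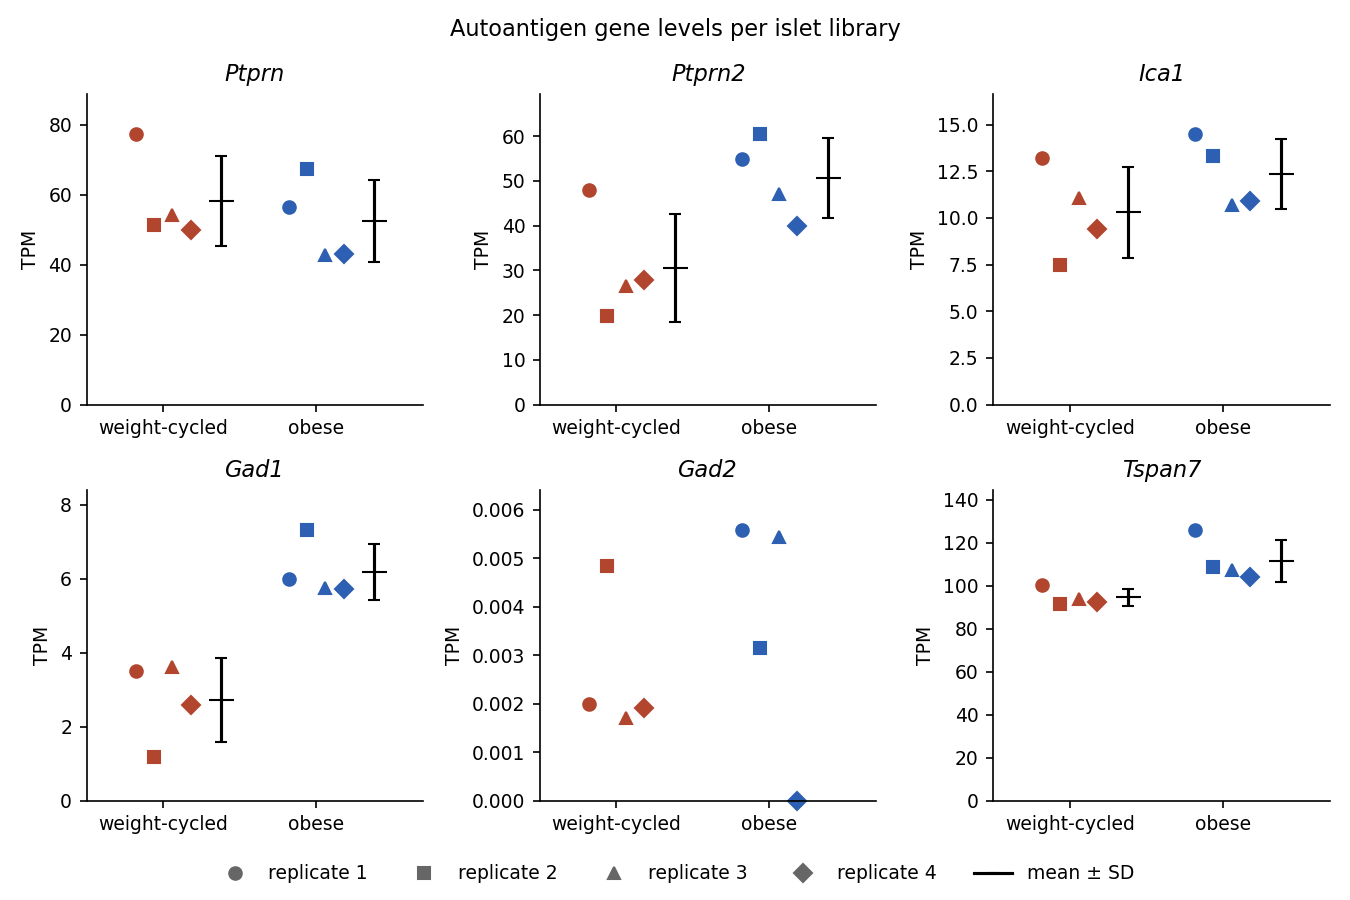
Level of each autoantigen gene in TPM (vertical axes, each on its own linear scale from 0) in the 4 weight-cycled (left, red) and 4 obese (right, blue) libraries, with symbols for replicate numbers and mean ± SD at the right of each group except for Gad2. The groups separate for Gad1 and Tspan7, weight-cycled replicate 1 stands at 77.4 TPM for Ptprn, and all Gad2 values are at most 0.00558 TPM.

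TPM divides by transcript length, but a length trend that differed between libraries remained, as given above. Levels of genes of unlike length are therefore compared here only as deposited. The order of the members by mean TPM over all libraries was Tspan7, Ptprn, Ptprn2, Ica1, Gad1 and Gad2. Tspan7 ranked 307th of the tested genes by mean TPM, Ptprn 493rd, Ptprn2 633rd, Ica1 1922nd and Gad1 3774th. Every neighbouring pair in this order was separated in all libraries of both groups, except Ptprn and Ptprn2, whose levels overlapped in obese islets. In weight-cycled islets the lowest Ptprn level, 49.97 TPM, was above the highest Ptprn2 level, 47.8 TPM.

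Ptprn (ENSMUSG00000026204.15, build mm10, chromosome 1, 75247027 to 75264502, minus strand, up to 23 exons) was at 77.4, 51.3, 54.2 and 49.97 TPM in weight-cycled replicates 1 to 4, against 56.6, 67.3, 42.9 and 43.2 TPM in obese replicates 1 to 4. The groups overlapped, and weight-cycled replicate 1 was the highest of all 8 libraries. Its mean was 58.2 ± 12.9 TPM in weight-cycled and 52.5 ± 11.8 TPM in obese islets (SD, n = 4 each). The log2 fold change, weight-cycled minus obese, was 0.15 with an SE of 0.169 and a 95% confidence interval of -0.22 to 0.52 (limma adjusted p = 0.479). Relative to the median of all tested genes it lay at 0.41. After median-of-ratios scaling the groups no longer overlapped, with 59.1 to 73.5 scaled TPM in weight-cycled and 39.7 to 56.7 scaled TPM in obese islets. Of all tested genes, 7.68% were separated in that direction after scaling. The scaled difference of 0.47 (SE 0.125) did not pass the test with all libraries (limma adjusted p = 0.0693). It passed with the replicate number as a block (limma adjusted p = 0.0446), where 449 of 8127 tested genes were called, 357 of them higher. The replicate numbers are not taken as pairs. The scaled difference also passed without weight-cycled replicate 1 (0.41, limma adjusted p = 0.0235), where 3 of 5 members and 37.8% of all tested genes were called. On TPM as deposited, leaving out that library gave 0.01 (limma adjusted p = 0.974).

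Ptprn2 (ENSMUSG00000056553.14, chromosome 12, 116485720 to 117276849, plus strand, up to 23 exons) spans 791130 bases, against 17476 bases for Ptprn. It was at 47.8, 19.8, 26.6 and 27.8 TPM in weight-cycled replicates 1 to 4, against 54.9, 60.4, 47.1 and 40.0 TPM in obese replicates 1 to 4. Weight-cycled replicate 1 lay inside the obese range, and the other 3 weight-cycled libraries lay below all obese ones. The mean was 30.5 ± 12.1 TPM in weight-cycled and 50.6 ± 8.94 TPM in obese islets (SD, n = 4 each). The log2 fold change, weight-cycled minus obese, was -0.77 with an SE of 0.218 and a 95% confidence interval of -1.24 to -0.29 (limma adjusted p = 0.0367). Ptprn2 ranked 956th of the tested genes by p. Relative to the median of all tested genes it lay at -0.51.

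The call for Ptprn2 depended on which libraries were kept. Without weight-cycled replicate 1 the difference was -1.0 (limma adjusted p = 0.000677), where 58% of all tested genes were called, and without obese replicate 4 it was -0.87 (limma adjusted p = 0.0426). It did not pass without weight-cycled replicate 2, 3 or 4 (limma adjusted p = 0.104, 0.0800 and 0.0897) or without obese replicate 1, 2 or 3 (limma adjusted p = 0.109, 0.105 and 0.0668). It was -0.44 after median-of-ratios scaling (limma adjusted p = 0.114) and -0.45 after removal of the length trend of each library (limma adjusted p = 0.101), where 0 and 1 of the 5 members and 1.81% and 3.31% of all tested genes were called. Of all tested genes, 0.566% were called lower after that scaling. Without weight-cycled replicate 1 both passed, at -0.60 after the scaling and -0.59 after removal of the length trend (limma adjusted p = 0.00551 and 0.00772). There the scaling called 37.8% of all tested genes (17.9% lower). Removal of the length trend called 2122 of 8127 (1089 lower). With all libraries and the trend taken over each gene's longest coding transcript, the Ptprn2 difference was -0.49 (limma adjusted p = 0.0979), where 1 of 5 members and 4.22% of all tested genes were called (2.01% lower).

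Within a library, the ratio of Ptprn2 to Ptprn is free of how libraries are scaled. It was 0.618, 0.386, 0.491 and 0.557 in weight-cycled replicates 1 to 4, against 0.970, 0.897, 1.10 and 0.926 in obese replicates 1 to 4. All 4 weight-cycled libraries lay below all 4 obese libraries, weight-cycled replicate 1 among them. The share of other gene pairs whose ratio separates in this way was not computed. The members were chosen with earlier results of these data known. On the log2 scale the ratio averaged -0.98 ± 0.292 in weight-cycled and -0.04 ± 0.128 in obese islets (SD, n = 4 each), a difference of -0.94 (exact permutation test, two-sided, p = 0.0286, the smallest that 4 against 4 libraries can give). The trend with transcript length was removed on log2(TPM + 1), where the difference before removal was -0.91. Removal gave -0.68 where a gene's length was the median over its coding transcripts, 485.5 bases for Ptprn and 3201 for Ptprn2. It gave -0.94 where the length was that of the longest coding transcript, 3554 bases for Ptprn and 3201 for Ptprn2. Both gave an exact permutation p of 0.0286, and these p-values are not adjusted.

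**Figure D2:**
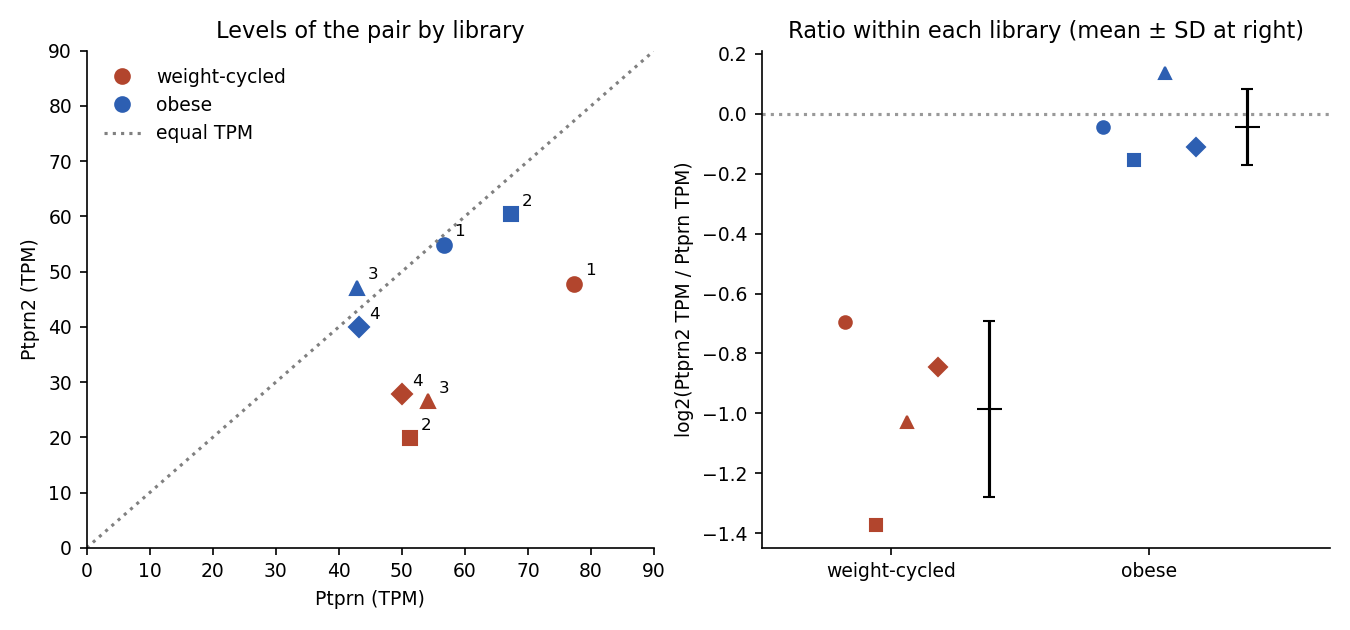
Left, Ptprn2 against Ptprn level in TPM (linear axes from 0, numbers are replicates, the dotted line marks equal levels); right, log2 of the Ptprn2 to Ptprn ratio within each weight-cycled (red) and obese (blue) library with mean ± SD. Obese libraries lie along the line of equal levels, and the weight-cycled ones lie below it, at log2 ratios of -1.37 to -0.69 against -0.16 to 0.13.

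Gad1 (ENSMUSG00000070880.10, chromosome 2, 70553072 to 70602014, plus strand, up to 17 exons), the GABA-forming enzyme gene of mouse islets, was at 3.50, 1.17, 3.63 and 2.60 TPM in weight-cycled replicates 1 to 4, against 6.00, 7.32, 5.75 and 5.71 TPM in obese replicates 1 to 4. The groups did not overlap, as for 21.1% of all tested genes in the same direction. Its mean was 2.72 ± 1.13 TPM in weight-cycled and 6.20 ± 0.761 TPM in obese islets (SD, n = 4 each). The log2 fold change, weight-cycled minus obese, was -1.0 with an SE of 0.208 and a 95% confidence interval of -1.46 to -0.55 (limma adjusted p = 0.0303). Because the level is low, the fold change depended on the pseudocount, at -1.27 with 0.1 and -0.55 with 5 (limma adjusted p = 0.0349 and 0.0224).

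Gad1 ranked 113th of the tested genes by p and lay at -0.75 relative to their median. After median-of-ratios scaling the groups were again separate, at 1.49 to 3.99 scaled TPM in weight-cycled and 4.92 to 6.16 in obese islets, as for 6.93% of tested genes in that direction. The scaled difference was -0.75 (SE 0.182, limma adjusted p = 0.0612), and it passed without weight-cycled replicate 1 (-0.81, limma adjusted p = 0.0125). In that scaled fit without the library, 37.8% of all tested genes were called (17.9% lower). With all libraries and the transcript length trend removed, the Gad1 difference was -0.86 (limma adjusted p = 0.0419), where 1.53% of tested genes were called lower. On TPM as deposited, Gad1 did not pass without weight-cycled replicate 4 (limma adjusted p = 0.0788) or without obese replicate 1, 2 or 3 (0.108, 0.0899 and 0.0658), and remained below 0 in each of these.

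Gad2 (ENSMUSG00000026787.3, chromosome 2, 22622205 to 22693874, plus strand, up to 16 exons) was listed at 0.00200, 0.00484, 0.00172 and 0.00191 TPM in weight-cycled replicates 1 to 4, against 0.00558, 0.00314, 0.00545 and 0 TPM in obese replicates 1 to 4. They lay below the filter on low values, and no fold change is given at them. In the fit with no filter Gad2 did not pass (limma adjusted p = 0.873). That outcome says nothing about Gad2, since its log2(TPM + 1) was near 0 in every library and that fit called 0 of 19482 genes. Gad1 exceeded Gad2 in all 8 libraries. With 0.1 added to both, the log2 ratio of Gad2 to Gad1 was -4.67 ± 0.743 in weight-cycled and -5.92 ± 0.169 in obese islets (SD, n = 4 each; exact permutation p = 0.0286, two-sided), a difference of 1.25 that follows from the Gad1 level and the added constant, since Gad2 was far below that constant throughout.

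Ica1 (ENSMUSG00000062995.12, chromosome 6, 8630527 to 8778488, minus strand, up to 15 exons) was at 13.2, 7.46, 11.1 and 9.41 TPM in weight-cycled replicates 1 to 4, against 14.5, 13.3, 10.7 and 10.9 TPM in obese replicates 1 to 4. The groups overlapped. The mean was 10.3 ± 2.45 TPM in weight-cycled and 12.4 ± 1.87 TPM in obese islets (SD, n = 4 each). The log2 fold change, weight-cycled minus obese, was -0.26 with an SE of 0.156 and a 95% confidence interval of -0.60 to 0.08 (limma adjusted p = 0.196). That is the median of all tested genes to 2 decimals, and the difference was 0.046 after median-of-ratios scaling. Without weight-cycled replicate 1 it was -0.38 and passed (limma adjusted p = 0.0310), where 54.6% of all tested genes were called lower.

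Tspan7 (ENSMUSG00000058254.12, chromosome X, 10485158 to 10596605, plus strand, up to 8 exons) was at 100.3, 91.6, 93.8 and 92.2 TPM in weight-cycled replicates 1 to 4, against 125.8, 108.4, 107.3 and 103.8 TPM in obese replicates 1 to 4. The groups did not overlap, as for 21.1% of all tested genes in the same direction. The mean was 94.5 ± 4.0 TPM in weight-cycled and 111 ± 9.84 TPM in obese islets (SD, n = 4 each). The log2 fold change, weight-cycled minus obese, was -0.23 with an SE of 0.0880 and a 95% confidence interval of -0.42 to -0.04 (limma adjusted p = 0.0640). Its direction depended on the scaling. After median-of-ratios scaling it was at 95.3 to 117 scaled TPM in weight-cycled and 91.2 to 103 in obese islets, a difference of 0.10 (limma adjusted p = 0.514), and after removal of the length trend 0.13 (limma adjusted p = 0.397). On TPM as deposited without weight-cycled replicate 1 it was -0.26 and passed (limma adjusted p = 0.0300). In that setting 54.6% of all tested genes were called lower, and the median of all tested genes was -0.32.

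**Figure D3:**
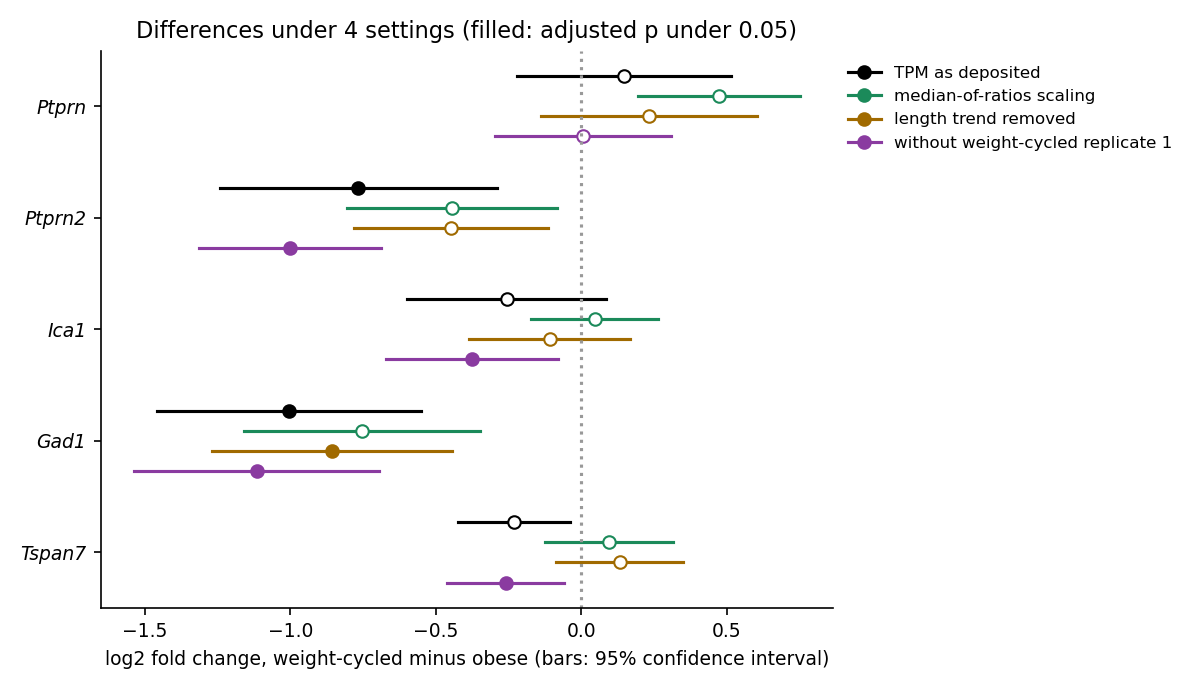
Log2 fold change (weight-cycled minus obese, on log2(TPM + 1), horizontal axis) with its 95% confidence interval for the 5 tested genes under 4 settings; filled points have an adjusted p under 0.05. Gad1 and Ptprn2 lie below 0 in all 4, Ptprn lies between 0.01 and 0.47, and Tspan7 lies at -0.23 as deposited and at 0.10 after median-of-ratios scaling.

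The level of a member also differed between the libraries of a group. Weight-cycled replicate 1 had the highest level of its group for 4 of the 5 tested members and weight-cycled replicate 2 the lowest for 4 of 5. Among obese libraries, replicates 1 and 2 held all 5 highest levels. The share of all tested genes with such extremes was not computed, so these counts are not a result about the members. The divisors of median-of-ratios scaling, taken over tested genes, had the same order. They were 1.05 and 0.786 in weight-cycled replicates 1 and 2, the highest and lowest of that group. In obese replicates 1 to 4 they were 1.22, 1.19, 1.08 and 1.02. Over the 8 libraries, Pearson's r of log2(TPM + 1) was 0.886 between Ptprn2 and Gad1, 0.880 between Ptprn2 and Ica1 and 0.827 between Ptprn2 and Tspan7. It was 0.352 between Ptprn and Ptprn2 and 0.04 between Ptprn and Gad1. These values describe libraries that share the group difference and the length trend given above, and they carry no test.

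The tested genes most like each member by the same measure over the 8 libraries, leaving out predicted gene models, were as follows. For Ptprn2 they were Add3, Ppp1r13b and Tns3 (r of 0.998, 0.997 and 0.996), at mean levels of 1.43, 1.17 and 1.43 TPM in weight-cycled and 2.20, 1.86 and 2.57 TPM in obese islets. For Gad1 they were Aatk, Mmachc and Slc3a2 (0.990 each), the last the heavy chain gene of amino acid transporters, at 26.8 ± 4.24 TPM in weight-cycled and 38.5 ± 3.04 TPM in obese islets (SD, n = 4 each). For Ptprn they were Ntrk2, a neurotrophin receptor gene, Paip2b and Hapln4 (0.965, 0.959 and 0.952). For Ica1 they were Tmem263, Ddc and Vps4b (0.988, 0.981 and 0.981), and for Tspan7 Snx17, Nadk and Bhlhb9 (0.985, 0.983 and 0.980).

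Other genes of the same routes were read from lists. Over all tested genes limma called 23.9% lower and 1.21% higher, and list counts near these shares are not a result about a list. Of 10 further genes whose products are targets of autoimmunity in type 1 diabetes, 9 were tested: 3 were lower, 0 higher and 6 did not pass, with a median log2 fold change of -0.05 against -0.26 over all tested genes. Slc30a8, which encodes the granule zinc transporter ZnT8, was at 126 ± 23.1 TPM in weight-cycled and 190 ± 14.6 TPM in obese islets (SD, n = 4 each), or -0.61 on the log2 scale (limma adjusted p = 0.0303). Hspd1, a mitochondrial chaperonin gene, and Ucn3, a urocortin gene that marks mature beta cells, fell by 0.60 and 0.63 on the log2 scale (limma adjusted p = 0.0322 and 0.0324). Ins2, the most abundant, had a log2 fold change of -0.001 (limma adjusted p = 0.998), and it shares reads with the near-identical Ins1. After median-of-ratios scaling limma called 0 of these 9.

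Of 30 genes of GABA metabolism, transport and signalling, 11 were tested: 3 were lower, 0 higher and 8 did not pass, with a median of -0.37. That count is near the 23.9% of all tested genes called lower and is not a result about the list. Glul, the glutamine synthetase gene, was the most abundant, at 22.5 ± 5.93 TPM in weight-cycled and 44.1 ± 3.15 TPM in obese islets (SD, n = 4 each), or -0.97 on the log2 scale (SE 0.151; limma adjusted p = 0.0165). Glud1, which encodes the dehydrogenase that links glutamate to the citric acid cycle, fell by 0.58 and Abat, the GABA transaminase gene, by 0.56 on the log2 scale (limma adjusted p = 0.0303 and 0.0461). After median-of-ratios scaling 1 of the 11 was lower, and the median was -0.14. The vesicular GABA transporter gene Slc32a1, which marks GABA-releasing neurons, was at a mean level of 0.00108 TPM in weight-cycled and 0.000978 TPM in obese islets. Of 4 related decarboxylase genes, Csad and Ddc were tested and neither passed. Ddc, the aromatic amino acid decarboxylase gene, was the most abundant, at 107 ± 18.8 TPM in weight-cycled and 123 ± 16.5 TPM in obese islets (SD, n = 4 each; limma adjusted p = 0.221).

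Of 19 other receptor-type tyrosine phosphatase genes, 18 were in the table and 4 passed the filter. The most abundant, Ptprf, was at 4.12 ± 1.93 TPM in weight-cycled and 8.22 ± 1.72 TPM in obese islets (SD, n = 4 each), below both Ptprn and Ptprn2. Ptprf and Ptpra were lower, by log2 fold changes of -0.90 and -0.47 (limma adjusted p = 0.0335 and 0.0417), and the other 2 did not pass. Of 30 other tetraspanin genes, 19 were tested: Tspan5 and Tspan2 were lower, at -0.51 and -0.48 (limma adjusted p = 0.0335 and 0.0414), 0 were higher and 17 did not pass, with a median of -0.17. Cd63, a tetraspanin of lysosomes and granules and the most abundant, was at 403 ± 53.9 TPM in weight-cycled and 451 ± 18.8 TPM in obese islets (SD, n = 4 each; limma adjusted p = 0.202). Of 9 BAR-domain relatives of Ica1 and their small GTPase partners, 8 were tested and 1, Arfip1, was lower, at -0.34 (limma adjusted p = 0.0434). The most abundant of them, the GTPase gene Arf1, was at -0.30 (limma adjusted p = 0.0543). Limma called 0 phosphatase, 0 tetraspanin and 0 BAR-domain list genes after median-of-ratios scaling.

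Of 18 dense-core granule genes, 15 were tested: 4 were lower, 1 higher and 10 did not pass, with a median of -0.19. The count of lower genes is near the 23.9% over all tested genes and is not a result about the list. Besides Slc30a8, the vesicle fusion gene Vamp2 fell by 0.64 and the granule priming gene Cadps by 0.72, while Scg5, the chaperone gene of prohormone convertase, rose by 0.41 on the log2 scale (limma adjusted p = 0.0345, 0.0345 and 0.0322). Pcsk1n, an inhibitor gene of prohormone convertase named after its values were seen, was the other lower gene, at -0.52 (limma adjusted p = 0.0392). Chga, the chromogranin gene and the most abundant of the list, was at -0.29 (limma adjusted p = 0.175). The granule list's median turned to 0.14 after scaling, when 2 were higher and 0 lower. Sntb1 and Sntb2, syntrophin genes whose products bind the Ptprn protein, were below the filter, at mean levels of 0.0448 and 0.175 TPM in weight-cycled and 0.0509 and 0.238 TPM in obese islets.

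**Figure D4:**
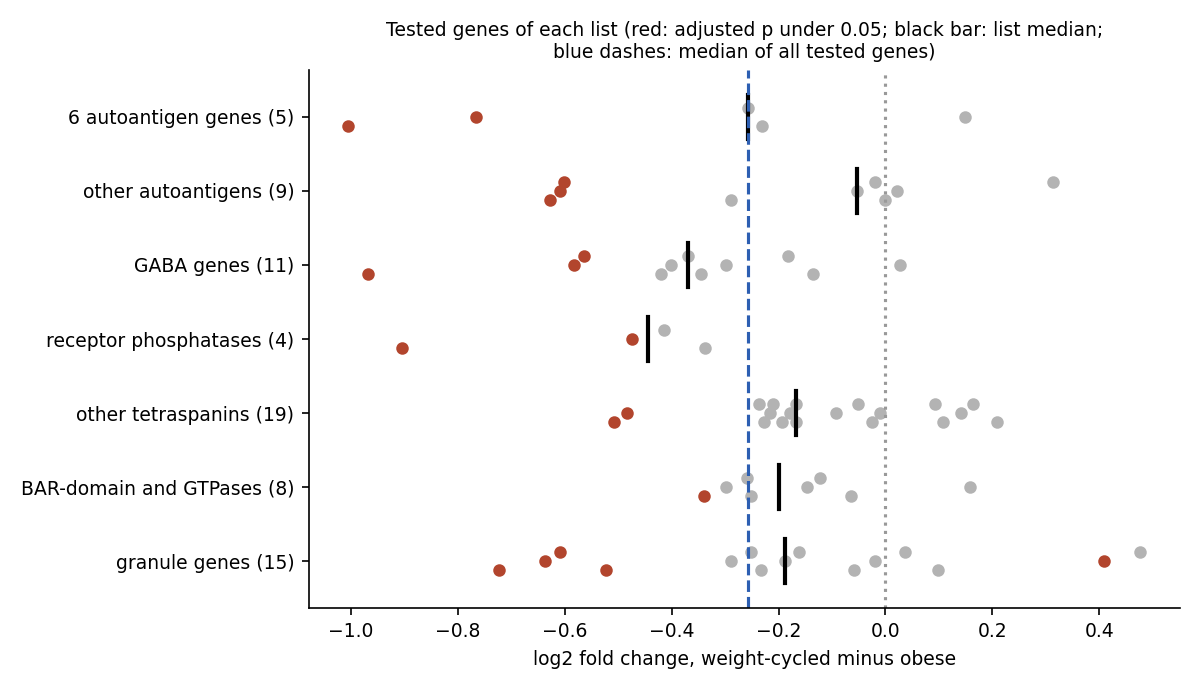
Log2 fold changes (weight-cycled minus obese, on log2(TPM + 1)) of the tested genes of each list, with the number tested in parentheses; red points have an adjusted p under 0.05, black bars are list medians and the dashed line is the median of all tested genes at -0.26. Gad1 and Ptprn2 are the red points at -1.0 and -0.77 in the top row.

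Islet preparations hold several cell types, and in bulk RNA fewer cells of a type and less RNA per cell cannot be told apart. The counts of markers below stand beside 23.9% of all tested genes called lower and 1.21% called higher. Of 10 beta-cell markers, 6 were lower and 0 higher, with a median log2 fold change of -0.61. The scaled median was -0.29, with 1 lower. On TPM as deposited the 4 that did not pass were Ins1, Ins2, Iapp and G6pc2, at 0.02, -0.001, 0.31 and -0.05. Summed beta-cell markers, mostly Ins1 and Ins2, ranged from 785488 to 813236 TPM in weight-cycled and from 790251 to 804017 TPM in obese islets. Summed alpha-cell markers ranged from 3128 to 8531 TPM in weight-cycled and from 4576 to 12328 TPM in obese islets, with 2 of 8 higher and 1 lower. Delta-cell and PP-cell markers summed to 8392 to 13580 TPM in weight-cycled and 7883 to 15963 TPM in obese islets, with 0 of 5 tested called by limma. Acinar markers summed to 3991 to 9119 TPM in weight-cycled and 3086 to 5754 TPM in obese islets, with 0 of 13 tested called. Macrophage markers summed to 43.0 to 53.9 TPM in weight-cycled and 56.4 to 71.3 TPM in obese islets, with 3 of 6 tested lower. C1qa, the most abundant of these, averaged 30.7 TPM in weight-cycled and 35.2 TPM in obese islets and did not pass (limma adjusted p = 0.157). Endothelial markers summed to 23.4 to 50.1 TPM in weight-cycled and 39.2 to 65.5 TPM in obese islets, with 2 of 8 lower. After median-of-ratios scaling limma called 0 of the 6 macrophage and 0 of the 8 endothelial markers, with medians of -0.10 and -0.16. Of duct markers 1 of 4 tested was lower, of stromal markers 0 of 1 was called and of Schwann cell and nerve markers 1 of 3 was lower, with Dbh at 0 in every library and Sox10 at 0.0352 TPM in weight-cycled and 0.0370 TPM in obese islets on average. The part of these mixtures in the values of Gad1 and Ptprn2 was not tested.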

How the data were processed

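Polyadenylated RNA of 8 islet libraries, 4 per group, was sequenced. The authors deposited gene-level TPM; the submitters' processing notes name Salmon 1.5.2 and build mm10. How transcripts were summed, and on which annotation, is not given in the sources used here. TPM is relative to each library's total (999930 to 999949 in these columns) and holds no read numbers; with depth unknown, counting intervals cannot be computed. Salmon shares reads of near-identical transcripts by estimate. Symbols were found for 35527 of 35596 gene IDs. Coordinates and lengths are those of GENCODE M21, built on GRCm38 (mm10), and the length of a gene is its median protein-coding transcript.

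Limma 3.58.1 (R 4.3.3, eBayes, trend = TRUE) was run on log2(TPM + 1) of genes averaging 1 TPM or more; p-values are two-sided and Benjamini-Hochberg adjusted over all these genes, with calls at 0.05; fold changes on this scale understate those of low genes. The 2 ratios were compared by exact permutation over 70 assignments of libraries. The fit was tested on simulated data, for the main fit with noise independent between genes. That noise lacked the shifts shared by many genes of these libraries. The simulation therefore does not bear on how calls changed with the libraries kept. The members, gene lists and alternatives were chosen with earlier results of these data known. From each list the text names up to 4 called genes with the smallest p and the most abundant gene, and for each member the 3 genes with the highest r. Alternatives were pseudocounts of 0.1 and 5, no filter, a filter at 5 TPM, median-of-ratios and quantile scaling, removal of length trends (loess, span 0.5), eBayes without trend or robust, the replicate number as a block and leaving out each library. No test adjusted over a list was run. At most 6 tested genes had identical values in any 2 libraries, so no library was a copy of another.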

Additional observations from a re-analysis of the deposited data

Results flagged for a closer look

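Dixon's ratio at the 95% level was computed for 48 groups of 4 values, of which chance picks about 1 in 20, or 2.4, and 4 held a value set apart. Weight-cycled replicate 1 had 77.4 TPM of Ptprn, and weight-cycled replicates 2 to 4 had 49.97 to 54.2 TPM. Weight-cycled replicate 2 had 0.00484 TPM of Gad2, and the other weight-cycled libraries had 0.00172 to 0.00200 TPM, all close to 0. The 30 other tetraspanin genes summed to 762 TPM in weight-cycled replicate 4, and to 661 to 670 TPM in weight-cycled replicates 1 to 3. Weight-cycled replicate 1 had 9119 TPM of the 14 acinar markers, and weight-cycled replicates 2 to 4 had 3991 to 4594 TPM.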

How the results depend on the processing

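Gad1 was below 0 under all 22 alternatives (-1.27 to -0.55, passed in 15) and Ptprn2 under all 23 (-1.0 to -0.43, passed in 10). Ptprn was above 0 under all 23 (0.01 to 0.47, passed in 2). Tspan7 reversed to 0.10 after median-of-ratios scaling with or without the block, 0.13 after removal of the length trend alone or with GC content, 0.16 with the longest coding transcript, and 0.15 (scaled) and 0.21 (length trend removed) without weight-cycled replicate 1. Ica1 reversed to 0.046 after median-of-ratios scaling with or without the block. The cause was not tested. Alternatives chosen after seeing the data were those with GC content, with the longest transcript, and the pairs of scaling or length trend with a left-out library or with the block.

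The 2044 genes called became 0 with no filter (5686 of 19482 at an unadjusted p under 0.05), 1080 of 3480 with a filter at 5 TPM, 147 after median-of-ratios scaling, 297 after quantile scaling, 269 after removal of the length trend, 299 with GC content and 343 with the longest transcript. Without weight-cycled replicate 1 they became 3072 after scaling and 2122 after removal of the length trend. With the block they became 449 after scaling. Leaving out a library gave 0 (without obese replicate 1, with 2714 at an unadjusted p under 0.05) to 4711 (without weight-cycled replicate 1). The 2 members called by limma became 0 with no filter and after median-of-ratios scaling (3 at an unadjusted p under 0.05 in both). The count of members called was 1 with a filter at 5 TPM (Ptprn2, since Gad1 is left out), and with quantile scaling and each removal of a length trend with all libraries (Gad1). Scaling with the block also gave 1, Ptprn, which was higher (0.47, limma adjusted p = 0.0446), while Gad1 and Ptprn2 did not pass (limma adjusted p = 0.0528 and 0.105). Scaling without weight-cycled replicate 1 gave 3, Gad1, Ptprn2 and Ptprn. Leaving out a library gave 0 to 4 (0 without weight-cycled replicate 4 or obese replicate 1, 2 or 3, with 2 or 3 members at an unadjusted p under 0.05).

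The Ptprn2 to Ptprn difference was -1.04 to -0.81 and that of Gad2 to Gad1 0.90 to 1.43 with a library left out, where an exact permutation of 3 against 4 libraries cannot go below p = 0.0571. Length correction of the Gad2 to Gad1 ratio was not run, since Gad2 is below the filter. Same-numbered libraries did not deviate together in every pair (r of 0.210, -0.276, -0.0522 and 0.231, and 2 of 8 libraries correlated best with their own number), so the numbers are not taken as pairs. With the replicate number as a block limma called 2903 genes, and Ptprn2 and Gad1 passed (limma adjusted p = 0.0181 and 0.0137). Paired by number, the differences of the log2 ratios were -0.94 and 1.25 (exact sign-flip p = 0.125 for both, the smallest possible).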
